A study of Homo sapiens with 6 samples.

Results

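The genes described here are 8 components of the machinery that senses DNA and RNA in the cytosol through the STING and MAVS adaptors: CGAS, IFI16, DDX41, TREX1, STING1, MAVS, TBK1 and IRF3. They are 8 of the 60640 genes in the expression tables and were matched by gene symbol. The set was chosen from measured levels of the same comparison that is described here, so the values of the 8 genes are a description and carry no test. RNA-seq of polyadenylated RNA was carried out on MOLT-4, an established human leukemia line of T-cell origin (T-cell acute lymphoblastic leukemia, T-ALL). There are 3 libraries of wild type cells and 3 labelled IK-KO, from cells in which IKZF1, the gene of the transcription factor IKAROS, was edited with CRISPR-Cas. No treatment, time point or further allele is named for either group, and both were grown in the same serum-containing medium. The edited line and its control were bought ready made, and the study's supplement shows blots of more than 1 knockout clone, but the labels do not say which clone was sequenced or whether replicates were separate cultures. P-values therefore measure only the spread between these libraries, which may be technical, and a difference between lines cannot be told apart from an effect of the edit.

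Cytosolic DNA is bound by cGAS (gene CGAS), which then makes the cyclic dinucleotide cGAMP. cGAMP binds STING (STING1) on the endoplasmic reticulum, STING moves to the Golgi and recruits the kinase TBK1, and TBK1 phosphorylates IRF3, which enters the nucleus and switches on type I interferon genes. IFI16 and the helicase DDX41 have been described as further DNA sensors that signal through STING. MAVS, a protein of the outer mitochondrial membrane, brings the RNA sensors RIG-I and MDA5 to the same kinase and factor. TREX1 is an exonuclease that degrades DNA in the cytosol and so keeps cGAS quiet. STING is well expressed in T cells, where its activation has been linked to cell death and arrested growth.

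Levels are given in FPKM, fragments scaled by transcript length and by the number mapped in the library, which can therefore be set side by side between genes. Each library held between 21234 and 21866 genes above 0. The number of fragments behind a value is unknown in FPKM tables, and the authors' lower and upper confidence bounds are the only measure of precision given per library. IKZF1 itself measured 134, 124 and 105 FPKM in wild type against 207, 260 and 207 FPKM under the IK-KO label. The RNA of the edited gene was thus higher, not lower, in every library labelled IK-KO (log2 change 0.89 ± 0.12 SE, limma adjusted p = 0.00295). This goes against what a loss of transcript would look like, but RNA does not show whether protein is made. Per the study's methods, the knockout was checked by PCR and by western blot for the protein, which these tables do not measure. Of 12 markers of the T lineage or, for TAL1, of T-cell leukemia, 10 had at least 1 FPKM in all 6 libraries. The summed level of the 12 was 1333 to 1397 FPKM in wild type and 1405 to 1572 FPKM under the IK-KO label, and CD3D and CD3E led this sum. Single markers moved both ways: limma called 6 lower, namely CD2 (61.5 ± 2.45 to 5.14 ± 0.217 FPKM), CD7 (15.8 to 4.17), CD5 (25.3 to 11.7), CD8A (9.02 to 2.94), CD4 (2.76 to 0.384) and TAL1 (23.1 to 12.3), and 4 higher (CD3D, CD3G, CD1A and PTCRA). Their part in the values of the sensing genes was not tested. B cell markers summed to at most 3.62 FPKM, myeloid markers to at most 0.744, erythroid or platelet markers to at most 0.612 and fibroblast markers to at most 0.560. Of these markers FCN1, HBB, PF4 and COL1A2 were listed at 0 throughout. Others were low but above 0, with means in wild type and under the IK-KO label of 1.14 and 0.457 FPKM for CD79A and 0.252 and 0.368 for CD14. HBA1 had means of 0.141 and 0.260 FPKM and PDGFRB of 0.274 and 0.255. Epithelial or endothelial markers summed to between 16.7 and 22.6 FPKM, most of it PECAM1, which T cells also express. KRT8 had means of 1.33 and 1.47 FPKM, and EPCAM and CDH5 were listed at 0.

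STING1 was the member that differed most between the groups: its level in the libraries labelled IK-KO was 2.68-fold lower than in wild type. TBK1 was lower and TREX1 higher, by smaller amounts, with no overlap between the groups. MAVS was slightly lower, also without overlap. IRF3, IFI16, DDX41 and CGAS had overlapping groups. In this bulk RNA, fewer cells of a type and less RNA per cell cannot be told apart. All changes are differences of log2(FPKM + 1), IK-KO minus wild type, which understate the change of genes with low FPKM.

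**Figure D1:**
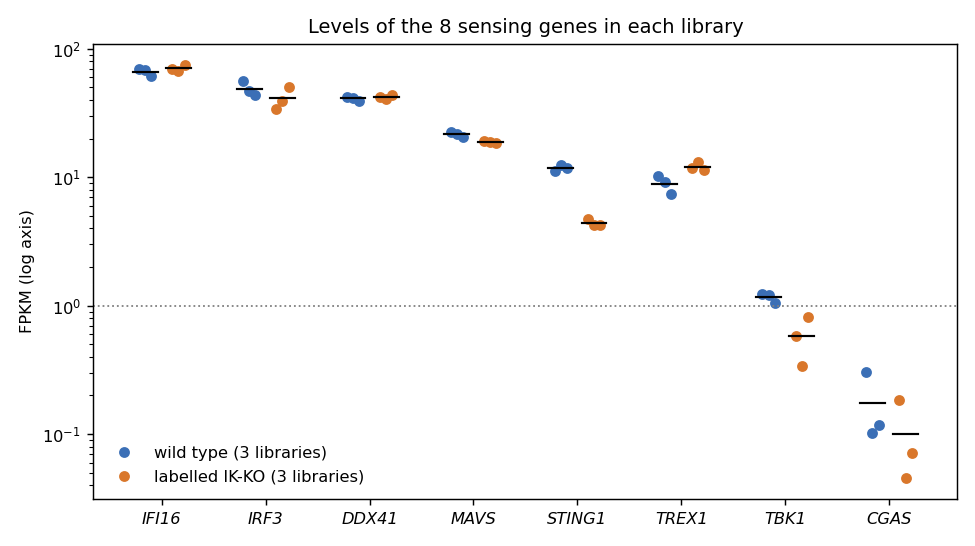
FPKM of the 8 genes on a log axis, 1 point per library (3 wild type, 3 labelled IK-KO), with a horizontal bar at each group's mean and a dotted line at 1 FPKM. STING1 falls from a wild type mean of 11.8 to 4.38 and so drops below TREX1, while IFI16, IRF3 and DDX41 stay between 33.7 and 75.2 in all 6 libraries and CGAS lies under 1 in all.

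In wild type cells the levels ran, from high to low, IFI16, IRF3, DDX41, MAVS, STING1, TREX1, TBK1 and CGAS, and the 3 libraries of each gene did not overlap those of the next. In the libraries labelled IK-KO the order was IFI16, DDX41, IRF3, MAVS, TREX1, STING1, TBK1 and CGAS, in which DDX41 and IRF3 overlapped. STING1 and TREX1 had exchanged places. In wild type replicates 1 and 2 the authors' bounds of these genes overlapped, in replicate 1 with 9.69 to 12.6 FPKM for STING1 and 8.35 to 12.1 for TREX1. The level of TREX1 is also limited by its overlap with ATRIP, described below. The ratio of STING1 to TREX1 was 1.09, 1.36 and 1.59 in the wild type libraries. It was 0.400, 0.323 and 0.373 in those labelled IK-KO. The ratio of MAVS to STING1, the RNA-side to the DNA-side adaptor, was 2.03, 1.74 and 1.74 in wild type against 4.06, 4.47 and 4.41.

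Of the proposed sensors, CGAS (ENSG00000164430.16, chr6:73413515-73452297, minus strand, GRCh38) was barely detected. The wild type libraries gave 0.303, 0.103 and 0.117 FPKM, against 0.183, 0.0454 and 0.0711 in those labelled IK-KO. The authors' lower bound was 0 in 5 of the 6 libraries, the exception being wild type replicate 1. A difference in CGAS was not detectable with these bounds and this spread (0.174 ± 0.112 against 0.0999 ± 0.0732 FPKM, SD, n = 3 each).

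IFI16 (ENSG00000163565.18, chr1:158999968-159055155, plus strand), a DNA-binding protein of the PYHIN family, had the highest level of the 8 genes. Its values were 69.2, 67.9 and 61.3 FPKM in wild type against 69.7, 67.2 and 75.2 in the libraries labelled IK-KO. The groups overlapped, with means of 66.1 ± 4.19 and 70.7 ± 4.05 FPKM and a log2 change of 0.10 ± 0.07 SE. The other PYHIN genes AIM2 and MNDA were listed at 0 in all libraries, and PYHIN1 had means of 0.0488 and 0.0554 FPKM. DDX41 (ENSG00000183258.12, chr5:177511577-177516961, minus strand), a DEAD-box helicase, had the change nearest to 0. DDX41 measured 42.4, 41.7 and 39.3 FPKM in wild type, against 41.7, 40.5 and 43.5 in the libraries labelled IK-KO. Its log2 change was 0.03 ± 0.06 SE, and the groups overlapped.

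TREX1 (ENSG00000213689.14, chr3:48465811-48467645, plus strand), the exonuclease that opposes the pathway, was the one member with higher, non-overlapping values in the libraries labelled IK-KO. TREX1 measured 10.2, 9.13 and 7.40 FPKM in wild type, against 11.7, 13.1 and 11.3 in the libraries labelled IK-KO. The means were 8.93 ± 1.43 and 12.05 ± 0.944 FPKM, 1.35-fold apart, with a log2 change of 0.40 ± 0.12 SE. The authors' bounds of single libraries did overlap: the highest upper bound in wild type was 12.1 FPKM and the lowest lower bound in the libraries labelled IK-KO was 9.52. TREX1 lies wholly within the span of ATRIP, the partner of the checkpoint kinase ATR, on the same strand, where it falls in the 3′ UTR of the canonical ATRIP transcript at chr3:48465552-48467645. Fragments there could have been assigned to either gene. ATRIP stood at 8.77 ± 0.266 and 8.91 ± 1.70 FPKM, a log2 change of 0.01. The sum of both genes was 18.9, 17.7 and 16.5 FPKM in wild type, against 22.5, 20.5 and 19.9 in the libraries labelled IK-KO. That sum, computed after the values were seen, was higher without overlap, by 0.23 on the log2 scale. It contains TREX1 itself, and FPKM is scaled by each gene's own transcript length. The sum therefore cannot show whether fragments were assigned to the wrong gene.

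STING1 (ENSG00000184584.13, chr5:139475533-139482935, minus strand), the adaptor itself, had tight replicates on both sides. STING1 measured 11.1, 12.4 and 11.7 FPKM in wild type, against 4.69, 4.24 and 4.21 in the libraries labelled IK-KO. All 3 of the latter were far below the lowest wild type library. The means were 11.8 ± 0.636 and 4.38 ± 0.273 FPKM, with a log2 change of -1.25 ± 0.09 SE. The authors' bounds of single libraries did not meet: the lowest lower bound in wild type was 9.69 FPKM and the highest upper bound in the libraries labelled IK-KO was 6.04. In wild type STING1 lay above 49.98% of the tested genes, and in the libraries labelled IK-KO above 26.8%.

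MAVS (ENSG00000088888.18, chr20:3846799-3876123, plus strand) measured 22.6, 21.6 and 20.5 FPKM in wild type, against 19.0, 19.0 and 18.6 in the libraries labelled IK-KO. The means of 21.5 ± 1.06 and 18.9 ± 0.256 FPKM were 1.14-fold apart, with a log2 change of -0.18 ± 0.06 SE. The groups did not overlap, but the gap was within the authors' bounds, since the lowest lower bound in wild type was 19.5 FPKM and the highest upper bound in the libraries labelled IK-KO was 20.0. The gap in the adaptor for RNA sensing was thus smaller than that in the adaptor for DNA sensing in the same 6 libraries, a difference that was not tested.

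TBK1 (ENSG00000183735.10, chr12:64452092-64502114, plus strand), the kinase both adaptors share, had low levels. TBK1 measured 1.23, 1.21 and 1.06 FPKM in wild type, against 0.579, 0.340 and 0.809 in the libraries labelled IK-KO. The means were 1.17 ± 0.0951 and 0.576 ± 0.234 FPKM, 2.02-fold apart, and the groups did not overlap. The precision was poor: the authors' lower bound was 0 in 2 libraries labelled IK-KO, and the lowest lower bound in wild type (0.129 FPKM) lay under the highest upper bound in the other group (1.35 FPKM). With a mean of 0.871 FPKM over the 6 libraries TBK1 missed the limit for testing, as did CGAS with 0.137. The log2 change of TBK1, fitted without that limit, was -0.47 ± 0.14 SE.

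IRF3 (ENSG00000126456.16, chr19:49659569-49665875, minus strand), the transcription factor at the end of the chain, varied most within the groups among the members above 10 FPKM in every library. IRF3 measured 56.4, 46.7 and 43.4 FPKM in wild type, against 33.7, 39.3 and 50.05 in the libraries labelled IK-KO. IK-KO replicate 3 was above 2 of the wild type libraries. The means were 48.8 ± 6.73 and 41.0 ± 8.30 FPKM, with a log2 change of -0.26 ± 0.15 SE, so that no difference beyond the spread between libraries was seen. IRF3 overlaps BCL2L12 on the opposite strand, and whether the quantification used strand is not given in the sources used here. BCL2L12 stood at 48.8 ± 0.526 and 48.1 ± 4.22 FPKM.

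Over all genes, 12652 had a mean of at least 1 FPKM and were tested with limma, and a gene is referred to as called when its adjusted p was under 0.05. Of these 2515 were called (19.9%), 1282 of them with higher (10.1%) and 1233 with lower levels (9.75%) under the IK-KO label, and for 4935 (39.0%) the groups did not overlap. Of the 8 members 6 were tested, 1 was called (STING1, lower), and 3 of the 6 had non-overlapping groups (STING1 and MAVS lower, TREX1 higher). Counting TBK1, 4 of the 8 had non-overlapping groups. Nothing is read from these counts, because this comparison was used to choose the genes.

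**Figure D2:**
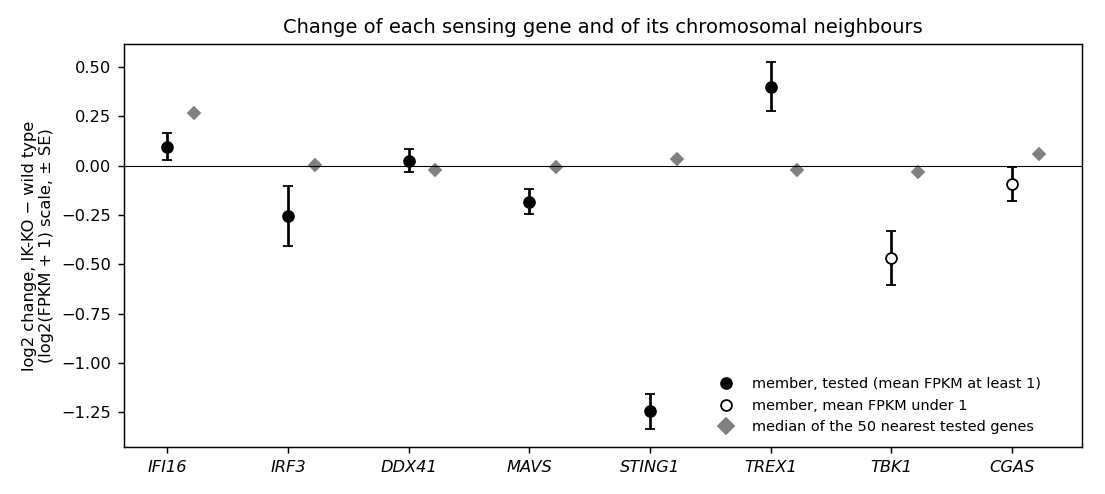
Log2 change (IK-KO minus wild type, log2(FPKM + 1)) of each member with its SE (filled circles where tested, open circles for TBK1 and CGAS), beside the median change of the 50 nearest tested genes on the chromosome (grey diamonds). STING1 lies at -1.25 where its neighbours have a median of 0.03, and IFI16 is the one member whose neighbours have a median beyond 0.1. Within 1 Mb of IFI16 the median is -0.74 instead.

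Some chromosome segments differed as a whole between the groups. Chromosome 9 had a median log2 change of -0.35, with 220 of its 469 tested genes called lower and 9 higher. Chromosome 6 had a median of 0.21, with 194 of 655 called higher and 39 lower. Each member was therefore set beside the median of the 50 nearest tested genes. For STING1 that median was 0.03, and the change less the neighbours was -1.28. For TREX1 and DDX41 the median was -0.02, for MAVS -0.01, for TBK1 -0.03, for CGAS 0.06 and for IRF3 0.0022. Only IFI16 had neighbours beyond 0.1, with a median of 0.27, and its change less the neighbours was -0.17. The nearest tested genes beside IFI16 were AL365440.2, which fell from 6.83 ± 2.72 to 0.846 ± 0.709 FPKM (limma adjusted p = 0.00629), and DUSP23, a phosphatase gene, which fell from 4.23 ± 0.909 to 0.883 ± 0.174 FPKM (limma adjusted p = 0.00167). Within 1 Mb of IFI16 there were 11 tested genes, of which 4 were called higher and 6 lower. Their median log2 change was -0.74, opposite in sign to that of the 50 nearest. How IFI16 stands beside its neighbours thus depends on the window.

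Within 1 Mb of STING1 there were 23 tested genes, of which 3 were called higher and 1 lower. The one called lower was DNAJC18, the nearest tested gene to the left of STING1, named here after its values were seen. DNAJC18, which encodes an HSP40-type cochaperone of the endoplasmic reticulum, measured 4.76, 5.85 and 4.66 FPKM in wild type, against 2.36, 1.30 and 1.51 in the libraries labelled IK-KO. Its log2 change of -1.18 ± 0.17 SE (limma adjusted p = 0.00442) was close in size to that of STING1. UBE2D2, a ubiquitin-conjugating enzyme gene and the nearest tested gene on the other side, was not called (log2 change -0.14 ± 0.11 SE). The gap in STING1 levels was thus shared with 1 adjacent gene.

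**Figure D3:**
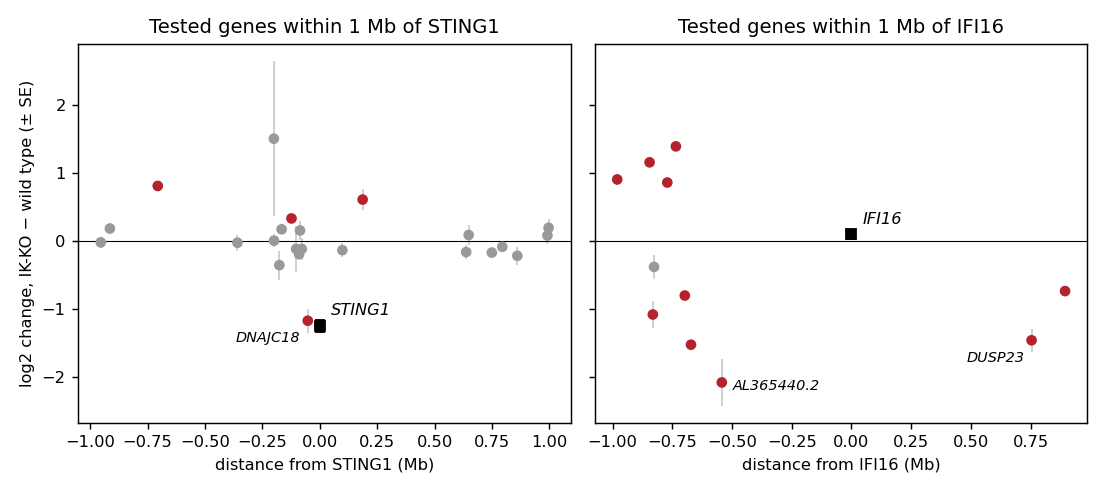
Log2 change with SE of every tested gene within 1 Mb of STING1 (left) and of IFI16 (right) against its distance in Mb, red where called and grey where not, with the member as a black square. Beside STING1 only DNAJC18 is called lower (-1.18), whereas 10 of the 11 genes around IFI16 are called, 4 higher and 6 lower.

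The genes whose pattern over the 6 libraries was most like that of STING1, by the root mean square difference of centred log2(FPKM + 1) values, lay on other chromosomes. They were SLAMF6, a lymphocyte surface receptor (difference 0.0441, means of 13.0 and 5.10 FPKM), FXYD2, a regulator of the sodium pump (0.0529, 421 and 170 FPKM), and JAK3, the kinase of the common gamma chain receptors (0.0546, 9.66 and 3.76 FPKM). For TBK1 the nearest patterns were those of USP44, a deubiquitinase (0.0347, 14.1 and 9.66 FPKM), FAM111B, a protease gene (0.0534), and SMIM24 (0.0544). TBK1 lies near 1 FPKM, where the added 1 shrinks its 2.02-fold gap. Its likeness to genes at higher levels therefore depends on this scale. These genes were selected for likeness, so their changes are a description.

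Promoter windows from RefSeq (GRCh38.p14), which run from 250 bases before to 50 after a start site, were matched for 5 of the 8 members (IFI16, with 2 windows, DDX41, TREX1, MAVS and TBK1). They were searched on both strands for GGGAA, the core of the DNA motif of IKAROS, for TGGGAA, which contains that core and so overlaps it, and for the interferon regulatory factor element, a pair of GAAA letters with 2 bases between them. The core alone was found in 65.0% of all 35116 windows of this length, TGGGAA in 24.03% and the interferon regulatory factor element in 3.57%. MAVS had 3 matches to the core, TBK1 had 2, TREX1 and the second window of IFI16 had 1 each, and DDX41 and the first window of IFI16 had none. TGGGAA was found in TREX1 only, and the interferon regulatory factor element in none of the 6 windows. A match describes letters, not binding, and no binding was measured in these libraries. The upstream sequences of TBK1 and MAVS, which were among the lower members, and the stretch of TREX1 that holds the longer match, are shown on the plus strand with the core or its reverse complement TTCCC (TBK1, MAVS) or TGGGAA (TREX1) in capitals.
TBK1, chr12:64451870-64452089: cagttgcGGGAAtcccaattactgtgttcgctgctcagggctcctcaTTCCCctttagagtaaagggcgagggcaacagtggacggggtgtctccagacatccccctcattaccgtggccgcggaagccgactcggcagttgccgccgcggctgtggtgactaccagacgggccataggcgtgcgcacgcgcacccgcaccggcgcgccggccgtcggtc
MAVS, chr20:3846584-3846798: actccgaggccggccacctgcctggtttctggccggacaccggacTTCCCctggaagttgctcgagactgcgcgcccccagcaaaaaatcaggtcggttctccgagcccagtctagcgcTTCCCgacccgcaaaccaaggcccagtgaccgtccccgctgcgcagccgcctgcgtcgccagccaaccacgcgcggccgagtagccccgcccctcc
TREX1, chr3:48465841-48465870: gggctggggccaTGGGAAgaaaccattgtg

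The TBK1 and MAVS sequences end where the annotated transcripts begin, and are rich in G and C (65.9% and 69.3%). The 2 matches of TBK1 begin at -243 and -203 relative to its start site. Those printed for MAVS begin at -205 and -131, and its other match lies within the transcript. The TREX1 match lies 23 bases past its start site, within the 3′ UTR of ATRIP. TBK1 and MAVS, which were lower, and TREX1, which was higher, thus all carried the core letters, which most promoter windows also carry. MAVS and TREX1 were not called in the fit over all genes given above, and TBK1 was under its limit for testing. These calls are not read as tests, since the same comparison was used to choose the genes. STING1, the member with the largest change, had no window, nor had CGAS or IRF3. No link between letters and direction was tested.

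The other genes of the pathway were taken from 7 lists by role, 131 genes in all, of which 105 were tested. Of these 22 were called, 11 higher and 11 lower, which is 21.0% beside 19.9% of all tested genes. The groups did not overlap for 42 of the 105, beside 39.0% of all tested genes. The counts given below for each list are to be set beside these shares. Their median log2 change was 0.01, beside 0.02 for all tested genes. No set test was run on the lists. Fewer were called whichever library was left out. Without wild type replicate 1, 2 or 3 there were 12, 13 and 13 calls, and without IK-KO replicate 1, 2 or 3 there were 15, 14 and 13. Of the 22, 7 were called in each of the 6 such fits. Each of these fits has fewer libraries, and the cause of the lower counts was not tested.

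**Figure D4:**
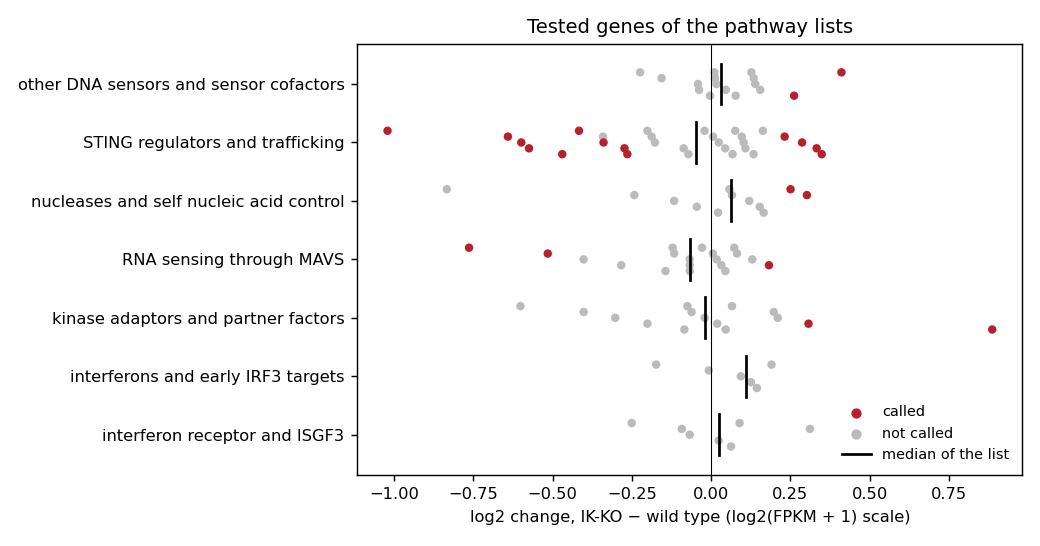
Log2 change (IK-KO minus wild type, log2(FPKM + 1)) of each tested gene of the 7 pathway lists, red where called by limma and grey where not, with a bar at each list's median. The list of STING regulators holds 13 of the 22 called genes and 30 of the 105 tested genes, and neither interferon list holds any called gene.

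Among other DNA sensors and sensor cofactors, 16 of 21 genes were tested, 2 were called higher and none lower, and the median log2 change was 0.03. MRE11, a nuclease of double-strand break repair that has also been described as a sensor of cytosolic DNA, rose from 15.2, 14.7 and 14.7 FPKM to 21.4, 20.0 and 18.9 (log2 change 0.41 ± 0.07 SE, limma adjusted p = 0.00738). It was called in all 17 alternative fits. PRKDC, the catalytic subunit of the DNA-dependent protein kinase, rose from 68.6 ± 3.36 to 82.4 ± 4.38 FPKM (log2 change 0.26 ± 0.06 SE, limma adjusted p = 0.0247). Its call was lost without wild type replicates 2 or 3 or IK-KO replicates 1 or 3, with limma adjusted p between 0.0592 and 0.0810. It was also lost with no filter on low values, without a trend and with the neighbours' median removed (limma adjusted p between 0.0514 and 0.0611). The 5 genes under the limit for testing were AIM2, ZBP1, PYHIN1, MNDA and TLR9.

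The regulators and trafficking factors of STING were the list with the most calls. Of 31 genes 30 were tested, and 13 were called (43.3%, beside 19.9% of all tested genes), 4 higher and 9 lower. The groups did not overlap for 17 of the 30, beside 39.0% of all tested genes. The list was chosen with earlier results of these data known. Between 6 and 8 were called without any 1 of wild type replicates 1, 2 or 3 or IK-KO replicates 2 or 3. The median log2 change of the list was -0.05. RHBDF2, which encodes iRhom2, a trafficking cofactor of STING, fell from 2.70 ± 0.673 to 0.882 ± 0.699 FPKM (log2 change -1.02 ± 0.28 SE, limma adjusted p = 0.0452). This call was weak: it was lost without any 1 of wild type replicates 1, 2 or 3 or IK-KO replicates 2 or 3, with limma adjusted p between 0.0589 and 0.130. With all libraries kept it was also lost at a pseudocount of 0.1, with no filter on low values and with quantile normalization. The same held without a trend and with the neighbours' median removed (limma adjusted p between 0.0519 and 0.144 in these fits). NLRX1, a mitochondrial protein that restrains STING signalling, fell from 4.77 ± 0.832 to 2.68 ± 0.189 FPKM (log2 change -0.64 ± 0.14 SE, limma adjusted p = 0.0169). Its call was lost without IK-KO replicate 2 (limma adjusted p = 0.0594) or 3 (limma adjusted p = 0.0538), and with no filter on low values (limma adjusted p = 0.0545). PPP6C, the catalytic subunit of protein phosphatase 6, which removes phosphate from STING, fell from 26.5, 24.8 and 24.7 FPKM to 16.3, 15.7 and 17.2 (log2 change -0.60 ± 0.07 SE, limma adjusted p = 0.0013) and was called in all 17 alternative fits.

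PPP6C is 1 of 4 regulators called lower that lie on chromosome 9, beside SURF4, TRIM32 and USP20, and it fell by 0.26 on the log2 scale once the median change of its neighbours was removed. With neighbours removed from every gene, 8 of the 13 calls in this list were kept, and those of SURF4, TRIM32, USP20, RNF5 and RHBDF2 were lost. The direction also turned for SURF4 (log2 change -0.26 to 0.07), USP20 (-0.27 to 0.05) and RNF5 (0.23 to -0.03). Called in every alternative fit were TMED2, INSIG1, NLRC3 and PPP6C, named here after their values were seen. TMED2, a cargo receptor of the early secretory pathway, rose from 75.5 ± 2.71 to 95.3 ± 2.88 FPKM. NLRC3, an inhibitor of the interaction of STING with TBK1, fell from 6.42 ± 0.486 to 3.99 ± 0.382 FPKM. INSIG1, a sterol-regulated protein of the endoplasmic reticulum that also supports the ubiquitination of STING, fell from 200 ± 9.80 to 158 ± 5.35 FPKM. Genes that restrain STING (NLRC3, NLRX1, PPP6C) and genes that assist it (RHBDF2, INSIG1) were thus both among those called lower.

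Of the nucleases and other genes that limit the response to self nucleic acids, 12 of 15 were tested, 2 were called higher and none lower, with a median log2 change of 0.06. BANF1, a small protein that coats DNA and keeps cGAS off it, rose from 251 ± 5.42 to 299 ± 9.39 FPKM (log2 change 0.25 ± 0.04 SE, limma adjusted p = 0.00765). DNASE1, a secreted endonuclease, rose from 15.0 ± 0.381 to 18.8 ± 1.83 FPKM (log2 change 0.30 ± 0.08 SE, limma adjusted p = 0.0454). The DNASE1 call was lost without any 1 of the wild type replicates or IK-KO replicates 1 or 2, with limma adjusted p between 0.0971 and 0.130. It was also lost with no filter on low values, with scaling over nuclear genes, without a trend and with the replicate block (limma adjusted p between 0.0618 and 0.0908). The call of BANF1 was kept in all 17 alternative fits. The 3 subunits of RNase H2, which removes ribonucleotides from DNA, were not called, and SAMHD1 was under the limit for testing with means of 0.489 and 0.275 FPKM.

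Of the genes for RNA sensing through MAVS, 19 of 22 were tested, 1 was called higher and 2 lower, with a median log2 change of -0.07. Both sensors were low and not called: RIGI stood at 5.68 ± 1.10 and 6.25 ± 0.309 FPKM and IFIH1, the gene of MDA5, at 3.53 ± 0.687 and 3.30 ± 0.0628. RIGI lies on chromosome 9, and its log2 change of 0.13 ± 0.14 SE stood beside a median of -0.37 for its neighbours. RIGI was thus not lower as its neighbours were. With the neighbours' median removed from every gene, 3 genes of this list were called, 2 of them shared with the main fit. TRAF5 and TRAF2, ubiquitin ligase adaptors that bind MAVS, were the genes called lower. TRAF5 fell from 8.45 ± 1.06 to 4.59 ± 0.927 FPKM (log2 change -0.76 ± 0.15 SE, limma adjusted p = 0.0129). The TRAF5 call was lost without wild type replicate 2 (limma adjusted p = 0.0536) or 3 (limma adjusted p = 0.0550), and with no filter on low values (limma adjusted p = 0.0535). TRAF2, on chromosome 9, fell from 17.5 ± 0.890 to 11.9 ± 0.850 FPKM (log2 change -0.52 ± 0.08 SE, limma adjusted p = 0.00515). With its neighbours' median removed the log2 change was -0.19 and the gene was not called (limma adjusted p = 0.148). PCBP2, which promotes the degradation of MAVS, rose from 322 ± 12.6 to 365 ± 9.59 FPKM (log2 change 0.18 ± 0.05 SE, limma adjusted p = 0.0323). The PCBP2 call was lost without wild type replicates 1 or 3 or any 1 of the IK-KO replicates, with limma adjusted p between 0.0533 and 0.106. It was also lost with no filter on low values, without a trend and with the replicate block (limma adjusted p between 0.0582 and 0.111). RNF135, TLR7 and TLR8 were under the limit for testing.

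Of the adaptors of TBK1 and the partners of IRF3, 15 of 18 were tested, 2 were called higher and none lower, and the median log2 change was -0.02. TBKBP1, an adaptor that binds TBK1, was low in wild type, at 0.648, 0.596 and 0.395 FPKM, and rose to 2.21, 1.10 and 2.43 in the libraries labelled IK-KO (log2 change 0.89 ± 0.23 SE, limma adjusted p = 0.0349). It was not called without any 1 of the wild type replicates or IK-KO replicates 1 or 3, with limma adjusted p between 0.0683 and 0.101. Nor was it called with no filter on low values (limma adjusted p = 0.0915) or with the replicate block (limma adjusted p = 0.0736). PPP2CA, the catalytic subunit of protein phosphatase 2A, rose from 136 ± 9.88 to 169 ± 5.92 FPKM (log2 change 0.31 ± 0.06 SE, limma adjusted p = 0.0149). It was not called without IK-KO replicate 1 (limma adjusted p = 0.0557) or 2 (limma adjusted p = 0.0564), or with its neighbours' median removed (limma adjusted p = 0.0641). IKBKE, the kinase most like TBK1, stood at 5.87 ± 0.468 and 4.57 ± 0.380 FPKM and was not called (log2 change -0.30 ± 0.11 SE, limma adjusted p = 0.0899). IRF7, the other main interferon-inducing factor, stood at 1.76 ± 0.464 and 1.66 ± 0.550 FPKM.

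None of the 8 interferon genes on the list was detected in either group. IFNB1, IFNA1, IFNA2, IFNE, IFNK, IFNL1, IFNL2 and IFNL3 were listed at 0 in all 6 libraries, as were the chemokine genes CXCL10 and CCL5, and OASL was under the limit for testing. Of the 17 interferons and early targets of IRF3 only 6 were tested, and limma called none, in any of the 17 alternatives either; 0 had an unadjusted p under 0.05. ISG15, the ubiquitin-like protein, stood at 46.6 ± 4.48 and 46.8 ± 8.58 FPKM. RSAD2, the antiviral enzyme viperin, stood at 9.70 ± 0.908 and 10.4 ± 1.21 FPKM. IFIT1, IFIT2 and IFIT3, which bind foreign RNA or each other, were between 1.04 and 4.34 FPKM on average in either group. The early targets of the pathway thus did not pass the test in these libraries.

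The receptor and signalling genes of type I interferon were all tested. Limma called none of the 7, 2 had an unadjusted p under 0.05 (JAK1 lower, STAT2 higher), and at most 1 was called in any alternative. IFNAR1 stood at 21.8 ± 1.83 and 20.3 ± 1.59 FPKM and IFNAR2, the other receptor chain, at 32.9 ± 5.51 and 34.1 ± 3.18 FPKM. The median log2 change of the list was 0.02.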

How the data were processed

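Per the labels, 6 libraries of polyadenylated RNA were analysed, and groups and replicate numbers were taken from the sample titles. The deposited files are gene-level FPKM tables in the layout of Cufflinks, which the authors scaled for transcript length and library depth; the submitters' processing notes name STAR 2.6.1c, Cufflinks 2.2.1, HOMER 4.10 and hg38, and the annotation is not given in the sources used here. Rows of 1 gene identifier were summed (110 of 60640 identifiers), and 29 genes not estimated in some library were left out. Coordinates are those of the tables counted from 1; 7 of the 8 members lie where GENCODE 44 puts them on GRCh38.

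Changes were fitted with limma 3.58.1 in R 4.3.3 (lmFit and trended eBayes; two-sided tests with Benjamini-Hochberg adjustment over the 12652 tested genes) on log2(FPKM + 1), after checks on simulated data. The study's test of 2 conditions without adjustment was replaced by limma because each group has 3 libraries. The members and gene lists were chosen with earlier results of these data known. Named are the 8 members, IKZF1, the 3 called genes with the largest change in each pathway list, the interferons, early targets and RNA sensors under a mean of 1 FPKM, the 3 genes most like STING1 and TBK1, and the nearest tested genes of IFI16. Any other gene was chosen after its values were seen. Symbols RIGI, STEEP1 and SKIC2 were matched through older symbols. The 17 alternatives changed the pseudocount, the filter, the scaling, the rows kept, the trend, the chromosomal neighbours, the replicate block and the libraries. Depth is unknown in FPKM tables, and no counts were recovered.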

Additional observations from a re-analysis of the deposited data

How the results depend on the processing

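The number of genes called over the whole tables, 2515, lay between 1692 and 2803 under the 17 alternatives and between 1692 and 2004 when 1 library was left out. The number of pathway genes called, 22, was 12 with no filter on low values and 12 to 15 when 1 library was left out; the cause was not tested. With the replicate block, 1805 genes and 16 pathway genes were called. With the neighbours' median removed, 18 pathway genes were called, of which 14 were among the 22, so calls were gained as well as lost. Libraries with the same replicate number shared little deviation from their group means, with correlations of 0.0669, 0.0248 and 0.00546 for replicates 1 to 3. No shared batch is named, but these correlations cannot show whether such libraries were handled together. Across the alternatives the log2 change of STING1 stayed between -1.40 and -1.21, that of IRF3 between -0.41 and -0.13, that of TREX1 between 0.29 and 0.50 and that of MAVS between -0.22 and -0.15. DDX41 lay between -0.01 and 0.05. IFI16 lay between -0.17 and 0.13 and was below 0 only with the neighbours' median removed. CGAS and TBK1 could be fitted only without the filter. Removing the neighbours' median turned the direction of the called pathway genes SURF4 (to 0.07), USP20 (to 0.05) and RNF5 (to -0.03), none of which was then called, and 6 of the 22 called pathway genes were called in every alternative. The authors' bounds, which reach 0 in 5 libraries for CGAS and in 2 for TBK1, limit what can be said of these genes.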

Other observations

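Neighbours of other members also differed between the groups, and are named here after their values were seen. XPOT, an exportin for transfer RNA and the nearest tested gene before TBK1, rose from 43.3 ± 1.86 to 54.2 ± 3.28 FPKM (log2 change 0.32 ± 0.06 SE, limma adjusted p = 0.0143). RASSF3, a member of the RAS association family and the nearest tested gene after TBK1, fell from 9.56 ± 0.422 to 7.11 ± 0.297 FPKM (log2 change -0.38 ± 0.08 SE, limma adjusted p = 0.0171). TBK1 thus lies between a gene that rose and a gene that fell. SHISA5, a protein of the endoplasmic reticulum and the nearest tested gene after TREX1, fell from 48.3 ± 1.80 to 38.5 ± 0.837 FPKM (log2 change -0.32 ± 0.05 SE, limma adjusted p = 0.00684), whereas TREX1 was higher. AP5S1, beside MAVS, stood at 16.3 ± 1.89 and 13.1 ± 0.239 FPKM and was not called (log2 change -0.29 ± 0.09 SE, limma adjusted p = 0.0702).

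Further pathway genes were near the threshold in the main fit without passing it. OPTN, TICAM1 and IRF1 belong to the list of TBK1 adaptors and IRF3 partners, in which 2 genes were called in the main fit. With median ratio scaling 4 genes of that list were called, 2 of them shared with the main fit. OPTN, a ubiquitin-binding adaptor of TBK1, stood at 3.06 ± 0.809 and 1.64 ± 0.124 FPKM (log2 change -0.60 ± 0.18 SE, limma adjusted p = 0.0535). TICAM1, the adaptor of TLR3, stood at 4.03 ± 0.456 and 2.79 ± 0.118 FPKM (log2 change -0.40 ± 0.12 SE, limma adjusted p = 0.0544). IRF1, an interferon-induced factor, stood at 39.4 ± 0.582 and 45.4 ± 2.37 FPKM (log2 change 0.20 ± 0.06 SE, limma adjusted p = 0.053). In these 3 genes the 3 libraries of one group lay outside the range of the other, as they did for 39.0% of all tested genes.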
